A study of Mus musculus and Homo sapiens with 7 samples.

Results

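The mitochondrial mRNAs for complexes III, IV and V of the respiratory chain were examined among the RNA recovered with EOLA1, a protein that the title of the series links to translation in mitochondria. They are MT-CO1, MT-CO2 and MT-CO3 (complex IV), MT-ATP8 and MT-ATP6 (complex V) and MT-CYB (complex III), 6 of the 13 mRNAs of human mitochondrial DNA. A bin of the chromosome was taken as a member when its midpoint lay in the coding region of one of them, which gave 100 of the 332 bins. The readout was UV-RIP-seq, in which ultraviolet light links proteins to the RNA they touch, an antibody pulls down one protein, and the RNA that comes with it is sequenced. The cells were HEK293T, a human line derived from embryonic kidney, grown in standard medium, exposed to 400 mJ/cm2 of ultraviolet light and precipitated with an antibody against EOLA1. Both libraries, replicates 1 and 2, belong to this 1 group, and the labels do not say whether they came from separate cultures, so the spread between them may be technical. The other 5 libraries of the series, from a guide RNA screen in the mouse melanoma line B16-F10, hold no mitochondrial RNA and were not used.

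Human mitochondrial DNA is transcribed from both strands into long RNAs that carry many genes, and all 6 mRNAs lie on the same one of these RNAs, as do the rRNAs and most tRNAs. The mRNAs are freed mainly by excision of the tRNAs that lie between them. The junction of MT-ATP6 and MT-CO3 has no tRNA and is cut in another way, while MT-ATP8 and MT-ATP6 stay together on 1 mRNA and are read in overlapping frames. These genes have no introns, and their mRNAs are translated inside the organelle by ribosomes built on the 12S and 16S rRNAs.

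Counts on the mitochondrial chromosome summed to 114188 in replicate 1 and 217229 in replicate 2, or 343.9 and 654.3 per bin of 50 bases. Levels below are given per bin as multiples of that mean, so that coding regions of different length and libraries of different depth can be set side by side. The rRNAs took 77.4% and 67.5% of all counts. A share on this scale therefore moves with the share of the rRNAs. The tables analysed hold no input and no control precipitation, so more EOLA1 on an RNA and more of that RNA in the cell cannot be told apart. With 1 group of 2 replicates no test between conditions was possible, and 2 pairs of values cannot give an exact two-sided p under 0.5.

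The complex III, IV and V mRNAs were together a minor part of the recovered RNA and lay well below the rRNAs, and MT-CO2 had the highest level of the set and MT-CYB the lowest. They took 8.62% of counts in replicate 1 (95% Wilson interval 8.46 to 8.79) and 10.9% in replicate 2 (10.8 to 11.0), with a mean of 9.76% ± 1.60 (SD, n = 2). Their mean level was 0.324 ± 0.0532 times the mean bin (SD, n = 2), and their per-bin level was 0.0696 ± 0.0180 times that of the rRNAs. The intervals cover counting error only, and they take each count as an independent read. Whether the reads carried molecular identifiers is not known. The difference between the replicates was larger than the error so computed. What was counted is not known, so the true counting error may be larger.

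MT-CO2 encodes the subunit of cytochrome c oxidase that takes electrons from cytochrome c, and lies at chrM:7586-8269 (GRCh38.p14). Its 13 bins held 2607 and 4663 counts in replicates 1 and 2, a per-bin level of 0.583 and 0.548. This was the highest level of the 6 in both replicates. MT-CO3, a further core subunit of the oxidase at chrM:9207-9990, had 1506 and 5185 counts in 16 bins and a level of 0.274 and 0.495. MT-CO1, the catalytic subunit that carries the haem and copper centre where oxygen is reduced, lies at chrM:5904-7445 and had 3155 and 8504 counts in 31 bins. Its level was 0.296 and 0.419. MT-CO3 and MT-CO1 changed places between the replicates, so they could not be ranked against each other.

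MT-ATP6 and MT-ATP8 encode membrane subunits of ATP synthase, of which the MT-ATP6 protein forms part of the proton path. MT-ATP6 at chrM:8527-9207 had 1229 and 2837 counts in 13 bins, a level of 0.275 and 0.334. MT-ATP8 at chrM:8366-8572 had 354 and 693 counts in 4 bins, a level of 0.257 and 0.265. MT-ATP6 was above MT-ATP8 in both replicates, by 1.07 and 1.26 times. MT-CO1 was above MT-ATP6 in both, by 1.08 and 1.26 times, though MT-ATP6 overlapped MT-CO1 and MT-CO3 in range. MT-CYB, cytochrome b of complex III, lies at chrM:14747-15887, apart from the others and nearer the end of the transcript. It had 994 and 1772 counts in 23 bins, a level of 0.126 and 0.118. The level of MT-ATP8, the next above it, was 2.05 and 2.25 times that of MT-CYB, a gap larger than the spread of either between replicates.

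**Figure D1:**
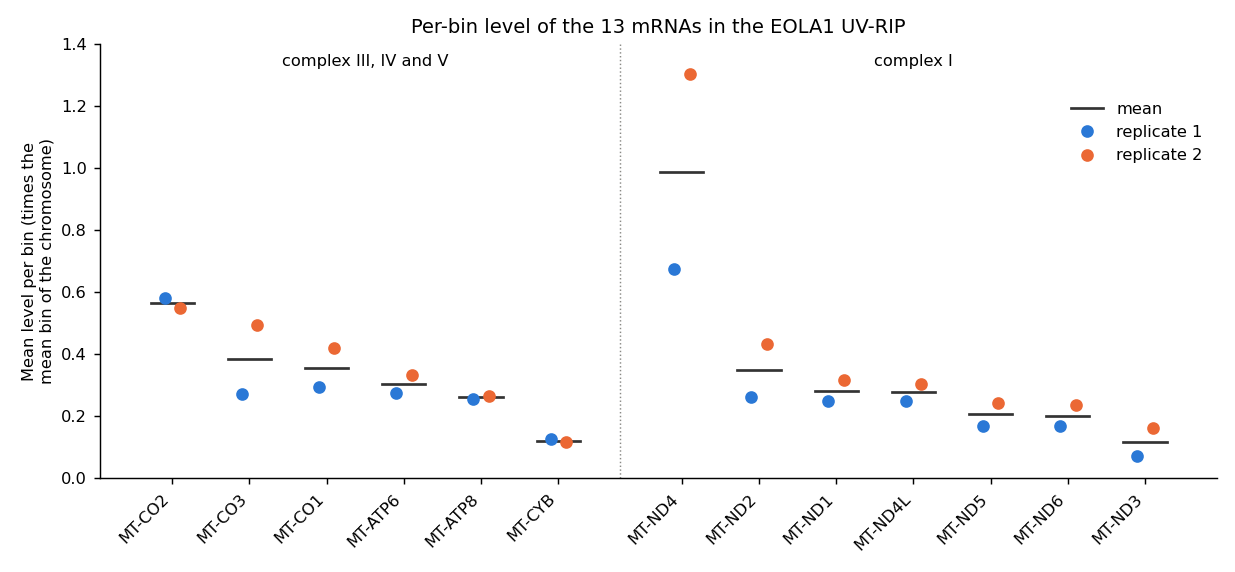
Mean level per bin, in multiples of the mean bin of the mitochondrial chromosome, for the 6 complex III, IV and V mRNAs (left) and the 7 complex I mRNAs (right). Points are the replicates and bars their means. MT-CO2 (0.583 and 0.548) is the highest of the 6 and MT-CYB (0.126 and 0.118) the lowest, and MT-ND4 (0.675 and 1.30) stands above all of them.

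Whether the set lay above or below the complex I mRNAs of the same strand (MT-ND1, MT-ND2, MT-ND3, MT-ND4L, MT-ND4 and MT-ND5) depended on MT-ND4. By mean level per bin the 6 mRNAs stood at 0.898 and 0.667 times the complex I mRNAs in replicates 1 and 2, a mean of 0.783 ± 0.164 (SD, n = 2). Without MT-ND4 the ratio was 1.39 and 1.20, and by the median bin of each set it was 1.23 and 1.11. The direction thus depended on MT-ND4 and on the use of the mean or the median. By rank of mean level among the 13 mRNAs, MT-CO2 was placed 2, MT-CO3 3, MT-CO1 4, MT-ATP6 6, MT-ATP8 9 and MT-CYB 12. Only MT-CO2 had the same rank in each replicate: MT-CO3 was placed 5 and 3, MT-CO1 3 and 5, MT-ATP6 4 and 6, MT-ATP8 7 and 9 and MT-CYB 12 and 13. The RNAs nearest to the sum of the 6 mRNAs, by the distance between log2 levels over the 2 replicates, were MT-ND1 (0.282), MT-ND2 (0.293) and MT-ND4L (0.315), and the next, MT-ND5, lay at 0.939.

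The evenness of the counts within a coding region differed between the mRNAs, and short stretches of 50 to 150 bases held most of MT-CO3 and much of MT-CO2. A bin was counted as a peak when it held at least 2 times the median bin of its own mRNA in both replicates. Of the 100 member bins, 11 (11%) were peaks, beside 14.4% of the 278 bins of all mRNAs and rRNAs. The share was near that background, so peaks as such were no feature of this set. The 11 bins formed 7 stretches and held 31.4% of the members' counts in replicate 1 and 31.8% in replicate 2. They lay in MT-CO3 (5 bins), MT-CO2 (3), MT-CO1 (2) and MT-CYB (1), and MT-ATP6 and MT-ATP8 had none. Peak bins held 71.7% and 73.7% of the counts of MT-CO3 in replicates 1 and 2, and 50.6% and 40.2% of those of MT-CO2. In MT-CO1 they held 17.7% and 20.2%, and in MT-CYB 13.2% and 6.15%. Taken alone, replicate 1 gave 15 such bins (19.1% of the bins of all mRNAs and rRNAs) and replicate 2 gave 22 (21.9% of them), and 8 of the 11 that only replicate 2 gave were in MT-CYB. At 3 times the median bin 4 member bins passed in both replicates (8.27% of the bins of all mRNAs and rRNAs), and at 2 times in the summed replicates 20 did (20.9% of them).

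MT-CO1 had its highest bins near its ends. The 25 bins from 6001 to 7250, between them, ran from 29 to 168 counts in replicate 1 and from 92 to 396 in replicate 2. Its first bin, bases 5901 to 5950, which begins 3 bases before the start codon, held 182 and 1257 counts in replicates 1 and 2. The next bin, 5951 to 6000, held 167 and 951. These were the highest bins of MT-CO1 in replicate 2, at 5.85 and 4.42 times its median bin, while in replicate 1 they stood at 2.04 and 1.88 times. Near the 3′ end, the bin 7251 to 7300, which ends 145 bases before the end of the coding region, held 376 and 464 counts. It was the highest bin of MT-CO1 in replicate 1, at 4.22 times the median bin, and at 2.16 times in replicate 2. The order of the 5′ and the 3′ stretch was therefore opposite in the replicates. The lowest bin of MT-CO1 in both was 7351 to 7400, with 24 and 81 counts. The 10 bins nearest the 3′ end stood at 1.08 times the 10 nearest the 5′ end in replicate 1 and at 0.631 times in replicate 2, so no slope along MT-CO1 held in both. Without its first 2 bins the level of MT-CO1 was 0.281 and 0.332, against 0.296 and 0.419 with them.

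MT-CO2 had a rise on each side of a dip and was low at both ends. The bins 7901 to 7950 and 7951 to 8000 held 481 and 474 counts in replicate 1, and 637 and 590 in replicate 2. Those of replicate 1 were the highest of all 100 member bins in that library. A second stretch, 7751 to 7800, held 365 and 648 counts, 2.10 and 2.30 times the median bin. Its neighbour 7701 to 7750, with 348 counts in replicate 1 and 540 in replicate 2, belonged to the same rise. Between the rises the bin 7851 to 7900 fell to 46 and 174 counts. Further on, the bin 8101 to 8150 held 219 and 653 counts, the highest bin of MT-CO2 in replicate 2 but not in replicate 1. The first bin of MT-CO2, 7601 to 7650, had 17 and 73 counts and was its lowest in both, and the last, 8201 to 8250, had 42 and 108.

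MT-CO3 had the most uneven profile of the 6, with counts gathered near both ends and a low middle. Its bins 9801 to 9950 held 801 counts in replicate 1 and 2988 in replicate 2, which was 53.2% and 57.6% of all counts of MT-CO3. The highest of them, 9851 to 9900, had 373 and 1447 counts, 8.11 and 12.1 times the median bin. It was the highest member bin in replicate 2, placed 35 among all 332 bins there and 58 in replicate 1. The stretch ended 40 bases before the end of the coding region, and the next and last bin, 9951 to 10000, fell to 13 and 52 counts, the lowest of MT-CO3 in both replicates. A smaller stretch near the 5′ end, 9301 to 9400, held 279 and 834 counts, 18.5% and 16.1% of the mRNA. The 5 bins nearest the 3′ end stood at 2.29 and 2.37 times the 5 nearest the 5′ end, a ratio that was close in both replicates. Because so few bins carried MT-CO3, its median bin was only 0.134 and 0.183 times the chromosome's mean, below those of MT-CO1, MT-CO2, MT-ATP8 and MT-ATP6 in each replicate.

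MT-CYB had low counts throughout, and its highest bins were not the same in the replicates. The bin 15401 to 15450 had 131 and 109 counts in replicates 1 and 2 and was the highest in replicate 1. The bins 14901 to 14950 and 14951 to 15000 had 76 and 65 counts in replicate 1 and 225 and 211 in replicate 2, where they were the highest. Only 15401 to 15450 passed the peak rule in both, at 3.28 and 2.32 times the median bin. Between these stretches the 7 bins from 15001 to 15350 were low, with 6 to 18 counts in replicate 1 and 15 to 39 in replicate 2. The lowest bin by mean share was 15301 to 15350, with 11 and 15 counts.

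**Figure D2:**
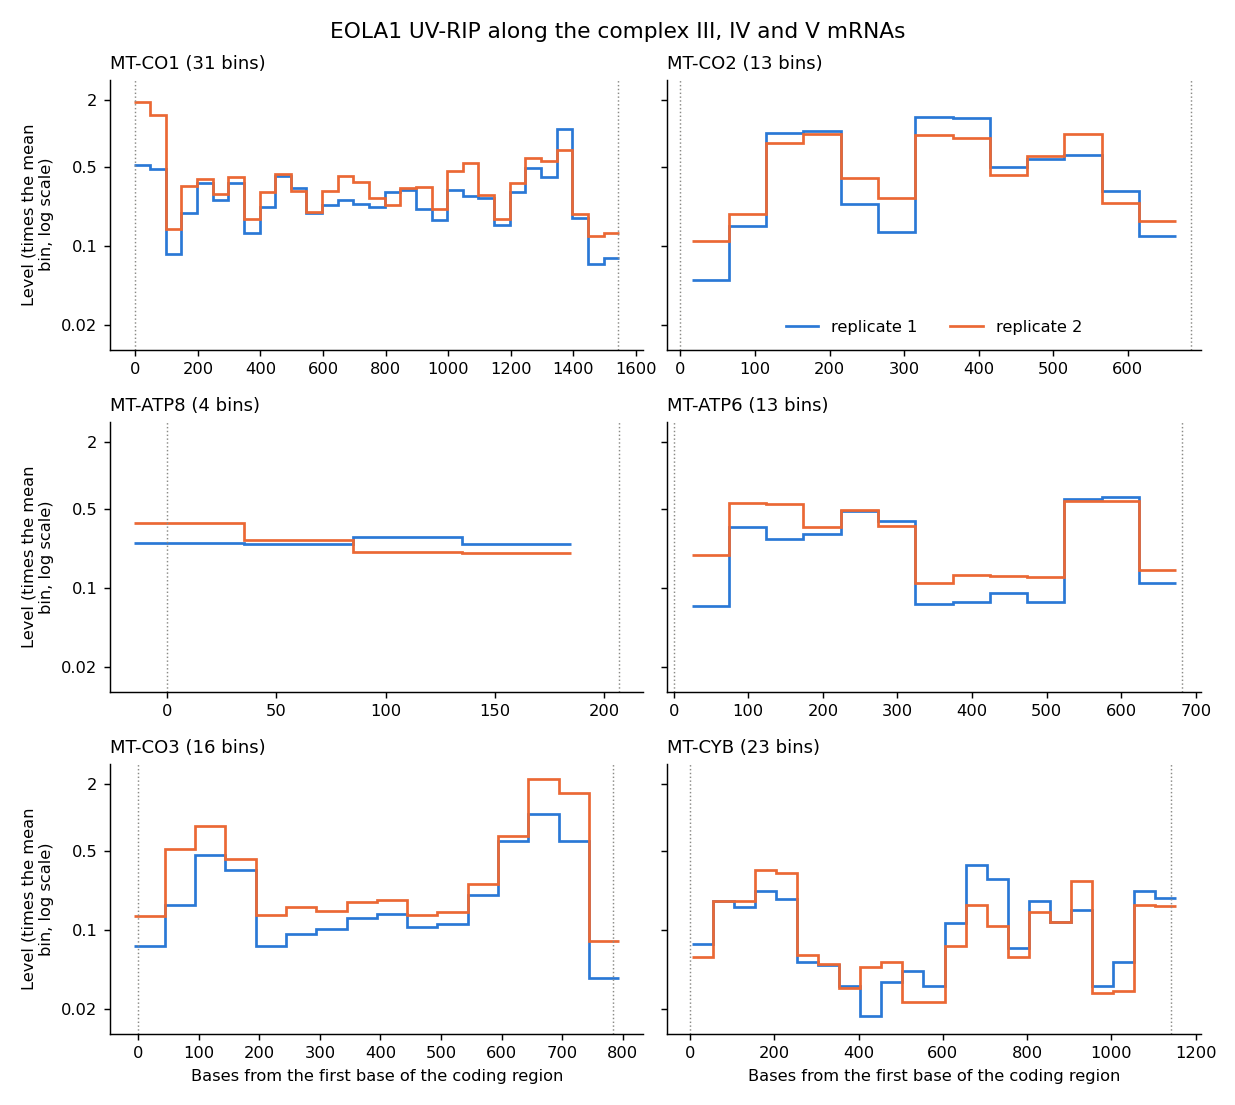
Level per bin along each coding region, in multiples of the mean bin of the chromosome on a log axis, against the distance in bases from its first base. Lines are the replicates, and dotted lines mark the ends of the coding region. The lines lie less than 2 times apart in all but 2 bins of MT-CO1 and 1 bin of MT-CO2. They part at the first bins of MT-CO1 (0.529 and 1.92) and the first bin of MT-CO2 (0.0494 and 0.112). They also part at the 3′ stretch of MT-CO3 (1.08 and 2.21).

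The outer ends of the coding regions differed in how sharply the counts changed. At the 5′ end of MT-CO1 the first bin held 5.06 and 10.5 times the bin before it, which had 36 and 120 counts. At the 3′ end of MT-CYB the last bin, 15851 to 15900, held 67 and 107 counts, against 3 and 8 in the bin after it. At the 5′ end of MT-CYB the change ran the other way, with 26 and 38 counts in its first bin, 14751 to 14800. The bin before it, which covers part of the tRNA gene MT-TE, held 524 and 180. The use of strand is not known, so those counts may come from RNA of either strand. At the 5′ end of MT-ATP8 the change was smaller, with 87 and 247 counts in its first bin against 35 and 163 in the bin before, 2.49 and 1.52 times. The last bin of MT-CO2 held 1.56 and 1.19 times the bin after it, which had 27 and 91 counts. Bins were assigned by midpoint, so a bin at an end can hold bases on both sides of it. The bins next to MT-CO2, 7551 to 7600 and 8251 to 8300, hold its first and its last coding bases. The ends next to the gap between MT-CO1 and MT-CO2 and the 3′ end of MT-CO3 showed little change. The last bin of MT-CO1 had 27 and 86 counts, the 3 bins between MT-CO1 and MT-CO2 had 19 to 23 in replicate 1 and 74 to 79 in replicate 2, and the first bin of MT-CO2 had 17 and 73, so that the stretch was flat across the tRNA genes in that gap. Likewise the last bin of MT-CO3, with 13 and 52 counts, differed little from the bin after it, with 16 and 54.

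At the junction of MT-ATP8 and MT-ATP6 the reading frames overlap by 46 bases, from 8527 to 8572. No bin has its midpoint in the overlap, and the bins that touch it are 8501 to 8550, counted with MT-ATP8, and 8551 to 8600, counted with MT-ATP6. The first held 85 and 133 counts and the second 24 and 129. In replicate 1 the count thus dropped from the first to the second of these bins, while in replicate 2 it was level. Each bin also holds bases outside the overlap, so the drop could not be placed within it. MT-ATP8 was the flattest of the 6: its bins held 85 to 97 counts in replicate 1 and 133 to 247 in replicate 2. It also has the fewest bins, 4, so its range is not directly comparable with those of the longer mRNAs. The 3 bins after the overlap, in MT-ATP6, averaged 105.7 and 320.3 counts, against 89.7 and 186.7 in the 3 bins before it, in MT-ATP8. The 2 bins that touch the overlap averaged 54.5 and 131 counts, below both of these means in each replicate. The step from the 3 bins before to the 3 bins after was 1.18 in replicate 1 and 1.72 in replicate 2, upwards in both (1.45 ± 0.38, SD, n = 2). Its size differed between the replicates by more than its distance from 1 in replicate 1.

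MT-ATP6 itself was split into a plateau, a gap and a 3′ stretch. From 8601 to 8850 its bins held 94 to 168 counts in replicate 1 and 227 to 371 in replicate 2. The 4 bins from 8851 to 9050 fell to between 25 and 31 counts in replicate 1 and between 73 and 86 in replicate 2. The bins 9051 to 9100 and 9101 to 9150 then held 214 and 223 counts in replicate 1, and 388 in each in replicate 2. Both were the highest of MT-ATP6 in each replicate, but only in replicate 1 were they over 2 times the median bin (2.28 and 2.37 times, against 1.71 times for each in replicate 2).

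The junction of MT-ATP6 and MT-CO3 lies at base 9207 and was a local low in both replicates. The bin that holds it, 9201 to 9250, had 25 and 87 counts in replicates 1 and 2. The 3 bins after it averaged 112.0 and 391.7 counts, against 158.3 and 290.3 in the 3 bins before it. The level after the junction was therefore 0.707 times that before it in replicate 1 and 1.35 times in replicate 2, so the bins at the junction gave no common direction of a step (1.03 ± 0.45, SD, n = 2). Taken over all bins of both mRNAs apart from the junction bin, MT-CO3 was above MT-ATP6 in both replicates, by 1.04 and 1.56 times. That direction depended on leaving out the junction bin, which is the first bin of MT-CO3. With it, MT-CO3 was just below MT-ATP6 in replicate 1 (0.274 against 0.275) and above it in replicate 2 (0.495 against 0.334). In both replicates the low took in the 2 bins from 9151 to 9250, between the 3′ stretch of MT-ATP6 and the 5′ stretch of MT-CO3. The bin 9251 to 9300, just after these, held 57 and 341 counts, 1 of the largest differences between the replicates in the set. In replicate 1 this bin was still below every bin of both stretches.

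**Figure D3:**
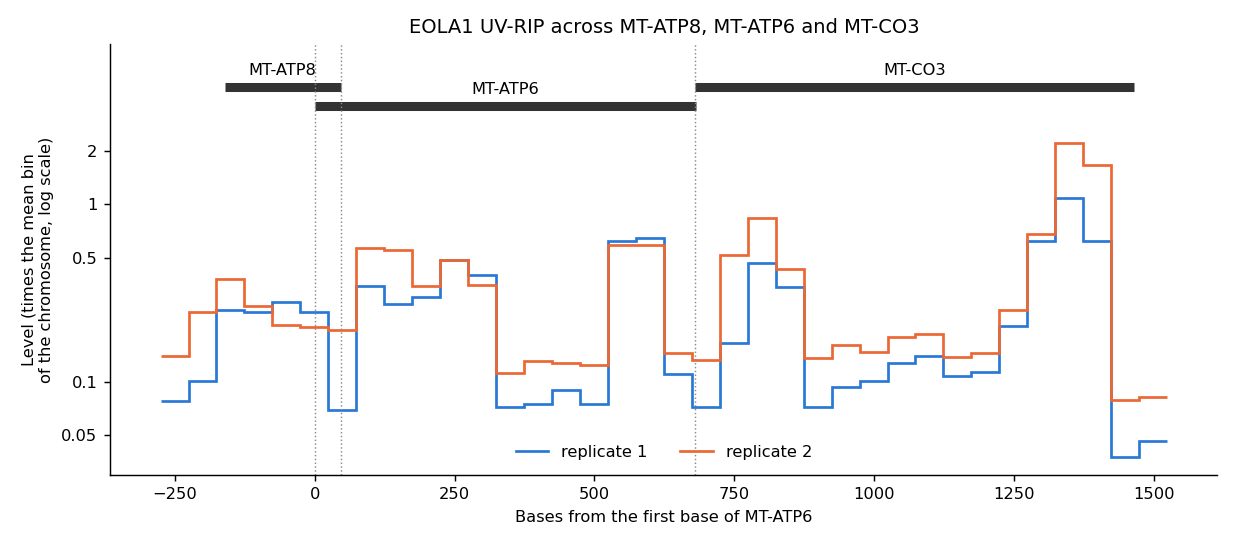
Level per bin across MT-ATP8, MT-ATP6 and MT-CO3, in multiples of the mean bin on a log axis, against the distance in bases from the first base of MT-ATP6. Bars show the coding regions and dotted lines the overlap and the MT-ATP6/MT-CO3 junction. Both replicates are low at the MT-ATP6/MT-CO3 junction (25 and 87 counts). In the bin after the middle of the overlap, replicate 1 drops to 24 counts from 85 in the bin before. Replicate 2 holds 129 there, after 133. Both rise in the next bin (119 and 371 counts).

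The replicates ranked the bins of MT-CO1, MT-CO2, MT-ATP6, MT-CO3 and MT-CYB in similar orders, while the levels of many bins differed. Across the 100 member bins the Spearman correlation between replicates was 0.909, a description over bins that share libraries and, where adjacent, may share RNA fragments. Within MT-CO3 it was 0.959 (16 bins), within MT-CO2 0.901 (13), within MT-CO1 0.878 (31), within MT-ATP6 0.846 (13) and within MT-CYB 0.840 (23). MT-ATP8 has too few bins for such a value, and its highest bin was not the same in the replicates (8451 to 8500 with 97 counts in replicate 1, and 8351 to 8400 with 247 in replicate 2). Neighbouring bins of an mRNA had correlations of 0.499 and 0.576 within replicates 1 and 2 (94 pairs). The chi-square per degree of freedom between replicates was 14.2 over the members, where counting alone gives about 1 if each count is an independent read. Since it is not known what was counted, how far the spread lay above counting noise could not be settled.

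As a whole the 6 mRNAs took 1.26 times as large a share in replicate 2 as in replicate 1 (95% counting interval 1.24 to 1.29). The value was 1.70 times for the heavy-strand complex I mRNAs, 1.47 times for these without MT-ND4, and 0.872 times for the rRNAs. The members did not share 1 value. MT-CO3 stood at 1.81 times, with all 16 of its bins higher in replicate 2, MT-CO1 at 1.42 times with 28 of 31 bins higher, and MT-ATP6 at 1.21 times with 10 of 13. MT-ATP8 stood at 1.03 times, and MT-CO2 was lower in replicate 2, at 0.940 times with 7 of 13 bins higher. MT-CYB stood at 0.937 times with 10 of 23 bins higher, and its counting interval of 0.867 to 1.01 included equal shares. Over counts outside the rRNAs, the value of the set turned to 0.880 times, so whether it was higher or lower in replicate 2 depended on the scale.

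**Figure D4:**
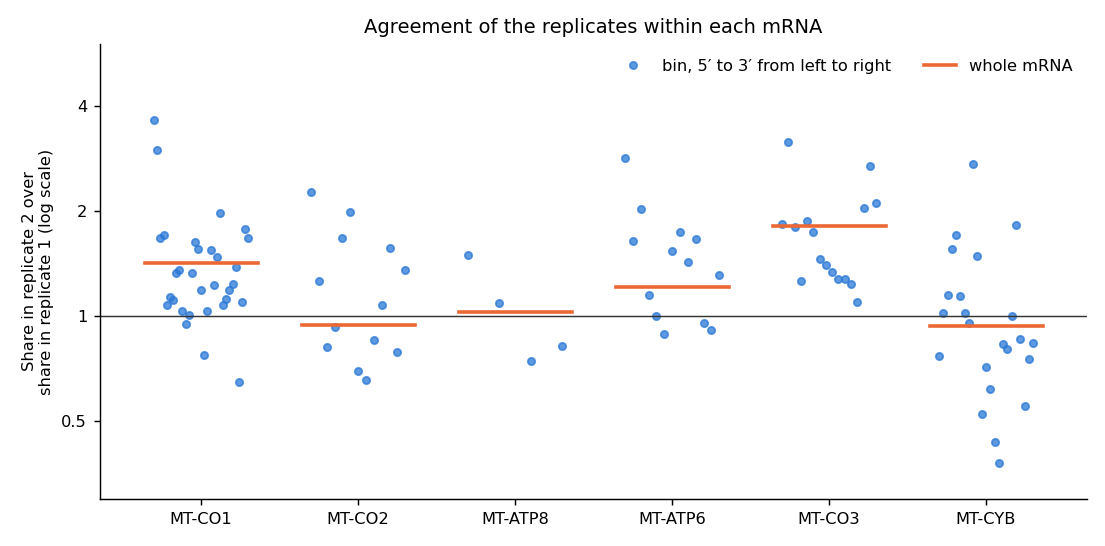
Share of counts in replicate 2 over that in replicate 1 on a log axis, for each bin (points, 5′ to 3′ from left to right) and for the whole mRNA (bars). The bars range from 0.937 for MT-CYB to 1.81 for MT-CO3, and the highest point is the first bin of MT-CO1 (3.63).

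Of the 100 member bins, 12 differed by at least 2 times in share between the replicates, beside 18.1% of all 332 bins of the chromosome. Of these, 10 were higher in replicate 2 (12.7% of all bins) and 2 were lower (5.42% of all bins). Each of these shares was thus lower among the members than over the chromosome, a difference that was not tested. Among the bins of the heavy-strand complex I mRNAs, 19.7% differed by at least 2 times. The bins that were higher lay in MT-CO3 (4), MT-CO1 (2), MT-ATP6 (2), MT-CO2 (1) and MT-CYB (1). They included both first bins of MT-CO1 (3.63 and 2.99 times) and the bin after the MT-ATP6/MT-CO3 junction (3.14 times). The 2 that were lower, 15401 to 15450 and 15451 to 15500, adjoin each other in MT-CYB (0.437 and 0.381 times). MT-ATP8 had no such bin. Over counts outside the rRNAs, 12 member bins differed as well (22.9% of all bins), but 3 were higher in replicate 2 (4.82% of all bins) and 9 were lower (18.1% of all bins). At a bound of 1.5 times over all counts, 39 member bins differed (46.1% of all bins), 32 of them higher (31.3% of all bins) and 7 lower (14.8% of all bins).

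**Figure D5:**
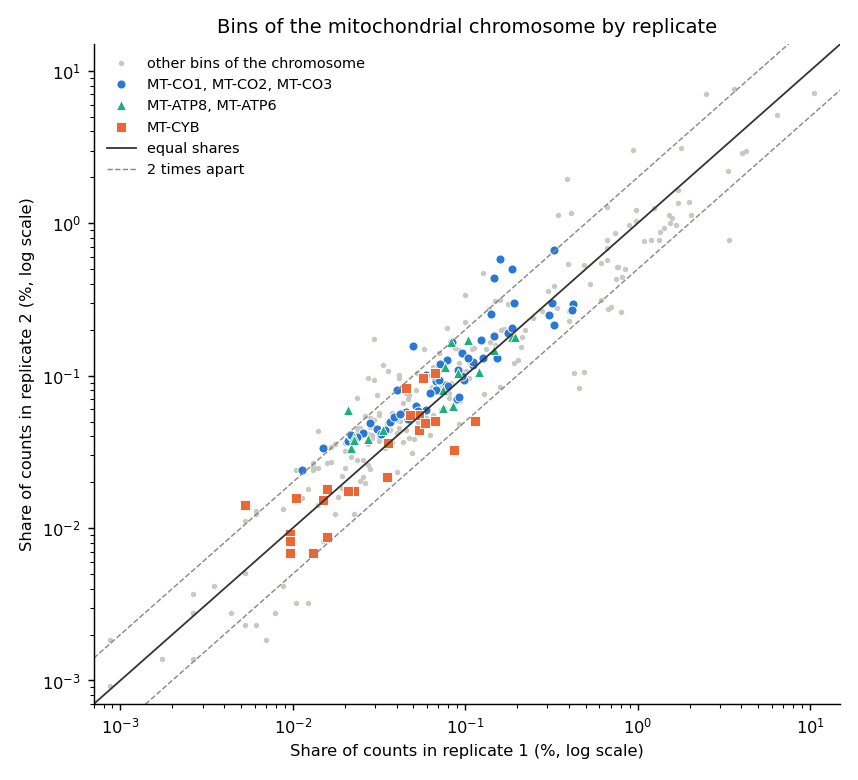
Share of the chromosome's counts in each bin in replicate 2 against replicate 1, in percent on log axes, with the members coloured by complex and bins at 0 in a replicate left out. The solid line marks equal shares and dashed lines 2 times apart. Of the member bins, 12 lie outside the dashed lines, 10 above and 2 below.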

How the data were processed

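The authors deposited, for each UV-RIP replicate, a table without a header that divides the mitochondrial chromosome into 332 bins of 50 bases (19 in the last) and gives a whole-number count for each. Per the submitters' processing notes the tools of the series include Trim Galore, STAR and Picard and the human build is GRCh38.p14. The sources used here do not give the settings, the use of strand, or whether reads, fragments or bases were counted. The deposited count of each bin was used as it stands, without duplicate removal or background subtraction. The positions of the 6 mRNAs came with the selection rule, and those of the other mRNAs and the rRNAs were entered from the standard annotation of human mitochondrial DNA. No human genome was used, so no sequence is shown. Bins were assigned by midpoint, and shares, Wilson intervals (95%), ratios and correlations were computed in Python 3.11.15 with numpy 2.4.6, pandas 2.3.3 and scipy 1.17.1. Named bins were the 3 highest, the lowest, the first and the last of each mRNA and those at junctions, and other bins were named after their values were seen. The members and lists were chosen with earlier results of these data known.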

Additional observations from a re-analysis of the deposited data

How the results depend on the processing

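No paired analysis was possible because the UV-RIP is 1 group of 2 replicates with nothing to pair it with. Over counts outside the rRNAs the share of the 6 mRNAs was 35.8% in place of 9.76%, and their share in replicate 2 over replicate 1 was 0.880 in place of 1.26. That ratio was 1.21 without the highest bin of each mRNA. The level over the heavy-strand complex I mRNAs turned from 0.783 to 1.17 with the median bin and to 1.29 without MT-ND4. The 11 peak bins became 4 at 3 times the median, 20 in summed replicates, and 15 to 22 with 1 replicate left out; 8.27%, 20.9%, 19.1% and 21.9% of all mRNA and rRNA bins passed these 4 rules. Splitting bins by overlapping bases gave a share of 9.73%, and bins wholly inside a coding region gave 9.16% and a level over complex I of 0.761. At 1.5 times, 39 member bins differed between the replicates (46.1% of all bins), in place of 12. At 2 times over counts outside the rRNAs the count was again 12 (22.9% of all bins). With 1 replicate left out, the share ran from 8.62% to 10.9%, the level over complex I from 0.667 to 0.898, the MT-ATP8/MT-ATP6 step from 1.18 to 1.72 and the MT-ATP6/MT-CO3 step from 0.707 to 1.35. With 2, with 5 or with all bins on each side of the junction bin, the MT-ATP6/MT-CO3 step stayed under 1 SD from 1.03. With all bins but the junction bin it pointed up in both replicates (1.04 and 1.56). With that bin counted in MT-CO3, its level in replicate 1 was just below that of MT-ATP6 (0.274 against 0.275). The bound of 1 SD also held for the MT-ATP8/MT-ATP6 step of 1.45 with 2 bins. Leaving out the first 2 bins of MT-CO1, chosen after seeing the data, gave a share of 9.09%. Except where a setting's own construction shows it, the cause was not tested. Depth limits the lowest bins most, with 6 to 24 counts in replicate 1 in the lowest bins of MT-CO1, MT-CO2, MT-ATP6, MT-CO3 and MT-CYB.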

Other observations

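In the block from MT-CO1 to MT-CO3 the low bins had a higher median ratio between the replicates than the high bins, a pattern looked for after the values were seen. Its 20 lowest bins by mean share held 13 to 45 counts in replicate 1 and 52 to 129 in replicate 2, and every one took a larger share in replicate 2, by 1.28 to 2.83 times with a median of 1.66. Its 19 highest bins held 141 to 481 counts in replicate 1 and 282 to 1447 in replicate 2, with a median of 1.08 times and a range of 0.649 to 3.63 that spans that of the low bins. Over all members the medians of the lowest 25 and the highest 25 bins were 1.42 and 1.24 times. In MT-CYB the order was the other way, with medians of 0.788 times for its lowest 6 bins (6 to 18 and 15 to 31 counts) and 1.16 times for its highest 6. What sets the level of the low bins was not tested.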
